A study of Homo sapiens with 6 samples.

Results

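The genes described here are 35 targets of the hypoxia-inducible factors (HIFs) that act outside glycolysis, taken by symbol as HIF-responsive genes. Of the 35, 34 were listed among the 21850 genes of the count table and 33 passed the filter on low counts, so that they could be tested. CA12 was not listed and was not taken as 0, and BNIP3 was listed but too low to test. RNA was sequenced from MM.1S, an established human multiple myeloma cell line, on day 3 after infection with a lentivirus. In 3 libraries the virus carried a short hairpin RNA against PRKCN (shPRKCN), the serine/threonine kinase listed under the symbol PRKD3, and in 3 control libraries a scramble hairpin (shNT), so that line, virus and time were shared. A single cell line was used in each group, and the labels do not say whether the 3 libraries of a group came from separate cultures, so p-values measure the spread between these libraries. No label names a low-oxygen treatment. None names a further PRKCN hairpin either, so other effects of the hairpin and loss of PRKCN cannot be told apart.

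HIFs are pairs of an oxygen-regulated alpha subunit and a constant beta subunit, ARNT. When oxygen is present, prolyl hydroxylases of the EGLN family mark the alpha subunit for recognition by VHL and destruction by the proteasome, and when oxygen is scarce the alpha subunit accumulates and binds the core sequence ACGTG or GCGTG near its targets. Beside the glycolytic enzymes these targets include growth factors, a pH regulator, collagen-modifying enzymes, mitophagy receptors, lipid droplet proteins and oxygen-dependent histone demethylases.

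Library totals ran from 35625564 to 37730003 counts, and no library repeated another. PRKD3 had 44913, 47712 and 45531 counts with the scramble hairpin and 19979, 18253 and 19998 with the PRKCN hairpin, a log2 fold change of -1.29 ± 0.03 (SE; adjusted p = 1.7e-66). Of 8 plasma cell markers, all 8 were listed, with JCHAIN between 188162 and 209545 counts in every library, while 4 of the 8 were called lower in shPRKCN libraries, IRF4 (log2 fold change -1.85) and XBP1 (-1.28) among them. Their summed level was 8665 to 8757 CPM, counts scaled to a common library size, in shNT and 7443 to 7584 CPM in shPRKCN libraries. Of the T cell markers, CD3D and CD3G had at most 1 count in any library while CD3E rose (log2 fold change 1.40), and the 4 together summed to 10.7 to 12.0 CPM in shNT and 27.5 to 31.3 CPM in shPRKCN libraries. Myeloid and fibroblast markers stayed under 0.3 CPM in sum in every library, epithelial markers reached at most 2.97 CPM, and the erythroid marker HBB fell from 80 to 145 counts to 35 to 41 counts. The part of these shifts in the results that follow was not tested. In bulk RNA, fewer cells of a kind and less RNA per cell cannot be told apart.

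Most of the tested genes were lower after PRKCN knockdown. A call required a log2 fold change of more than 0.58 up or down and an adjusted p (edgeR's quasi-likelihood test, Benjamini-Hochberg over all 13971 tested genes) below 0.05. Of the 33 tested genes, 23 were called lower and 0 higher, beside 10.6% of all tested genes called lower and 6.16% called higher. The shares are set side by side as a description, with no test of the list, because the genes were chosen with earlier results of these data known. DESeq2 also called 23 lower and 0 higher, and at an unadjusted p under 0.05 edgeR gave 29 lower and 1 higher. The fold limit removed 6 further genes: without it, 28 genes were lower and 1, the histone demethylase KDM4C, was higher, beside 27.9% and 26.6% of all tested genes. The 4 genes that did not pass the test were PLIN2, ZNF395, RAB20 and RIOK3. In 28 genes every shPRKCN library lay below every shNT library, and in 1 gene above, beside 29.8% and 29% of all tested genes. The median log2 fold change of the 33 genes was -0.93 (interquartile range -1.15 to -0.52), against 0.0012 (-0.27 to 0.22) over all tested genes. A called fall of more than 1 on the log2 scale was found in 16 of the 33, and in 643 of all tested genes, 4.6%.

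The shPRKCN libraries had similar medians. Relative to the shNT mean, the median log2 level of the 33 genes was -0.93, -0.90 and -0.89 in shPRKCN libraries. In shNT libraries it was -0.001, 0.004 and -0.001, which is small largely by construction, since these libraries set the mean. A median does not show how even single genes were. No single shPRKCN library carried the shift.

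**Figure D1:**
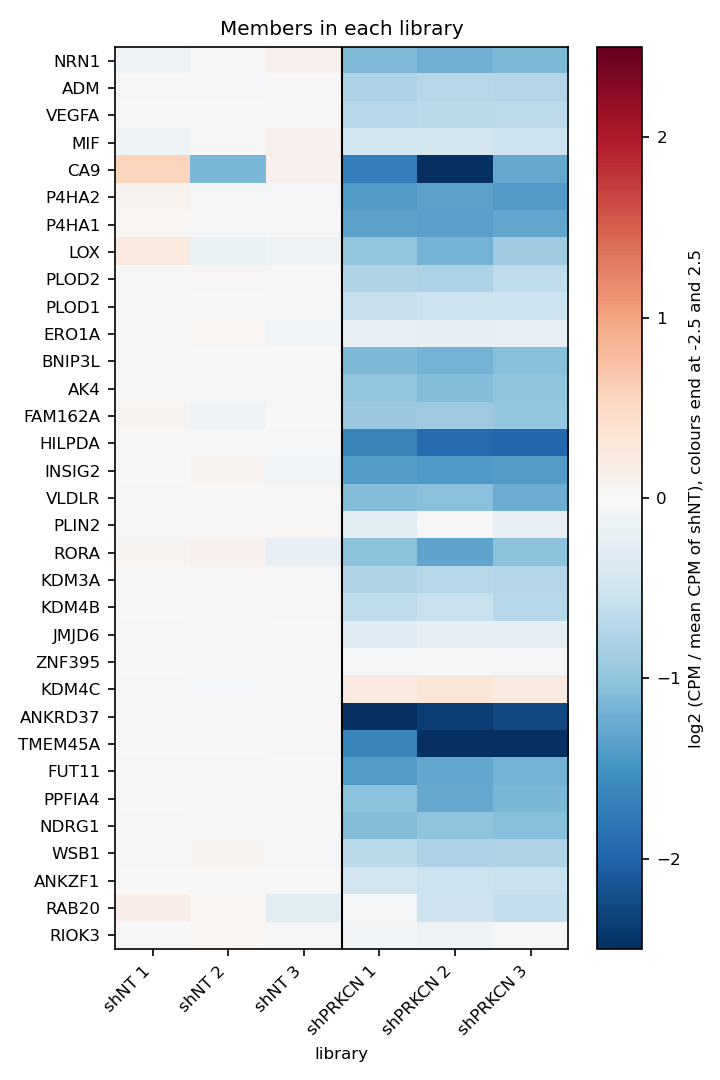
Level of the 33 tested genes (vertical, grouped by role) in each of the 6 libraries (horizontal), as the log2 ratio of CPM to the mean CPM of the 3 shNT libraries; blue is lower and red is higher. Most genes are blue in all 3 shPRKCN libraries, KDM4C is red in all 3, and CA9, with 3 to 50 counts, is uneven within each group.

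The largest fall was in ANKRD37, a small ankyrin repeat protein known as a direct HIF-1 target. ANKRD37 had 1915, 2034 and 2135 counts in shNT against 359, 406 and 442 in shPRKCN libraries. The groups lay far apart, and the fitted level was 19.3% of that in shNT (log2 fold change -2.37 ± 0.07, adjusted p = 6.2e-66). Its exons overlap those of UFSP2 on the opposite strand in GENCODE release 29, and UFSP2 was 1921, 1929 and 2011 counts in shNT and 1483, 1442 and 1352 in shPRKCN libraries (log2 fold change -0.49). Since the strandedness of the counting is not given in the sources used here, reads of the shared stretch cannot be assigned to either gene. TMEM45A, a transmembrane protein of uncertain function, came next with 191, 197 and 197 counts against 64, 34 and 35. It was low after knockdown in every library and lowest in libraries 2 and 3 (log2 fold change -2.17 ± 0.20, adjusted p = 3.2e-19).

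The promoters of 3 of the strongest falls are shown because the HIF core can be read in them directly, or is missing. The 3 are the members with the largest called falls, at least 50 counts on average and an entry in the RefSeq promoter table (GRCh38.p14, from 250 bases before to 50 bases after the start site). KDM4C, the only gene that was higher, was added after its values were seen. The windows are chr4:185396591-185396890 for ANKRD37, chr3:100492369-100492668 for TMEM45A, chr2:118088221-118088520 for INSIG2, which encodes a sterol-sensing regulator of cholesterol synthesis, and chr9:6757723-6758022 for KDM4C, each on the plus strand. Capitals mark every ACGTG or GCGTG on either strand, so that CACGT and CACGC are in capitals too, and CACGTG, which reads ACGTG on both strands, counts as 1 place.
ANKRD37: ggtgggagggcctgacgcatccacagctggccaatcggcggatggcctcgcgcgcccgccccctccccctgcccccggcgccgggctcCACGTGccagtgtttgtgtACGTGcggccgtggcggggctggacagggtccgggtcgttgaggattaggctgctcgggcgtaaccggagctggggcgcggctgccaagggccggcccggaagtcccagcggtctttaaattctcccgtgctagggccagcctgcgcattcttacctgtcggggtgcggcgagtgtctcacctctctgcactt
TMEM45A: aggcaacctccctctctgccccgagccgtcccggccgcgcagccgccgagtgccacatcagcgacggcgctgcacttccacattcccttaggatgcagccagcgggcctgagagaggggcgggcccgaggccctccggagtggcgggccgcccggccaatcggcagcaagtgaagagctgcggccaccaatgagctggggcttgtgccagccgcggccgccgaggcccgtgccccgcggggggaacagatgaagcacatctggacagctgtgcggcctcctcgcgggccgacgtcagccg
INSIG2: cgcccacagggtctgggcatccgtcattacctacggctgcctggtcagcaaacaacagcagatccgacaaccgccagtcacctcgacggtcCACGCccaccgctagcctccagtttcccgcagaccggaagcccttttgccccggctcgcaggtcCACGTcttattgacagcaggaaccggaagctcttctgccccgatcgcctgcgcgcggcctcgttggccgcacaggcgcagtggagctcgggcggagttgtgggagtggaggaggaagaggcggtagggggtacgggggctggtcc
KDM4C: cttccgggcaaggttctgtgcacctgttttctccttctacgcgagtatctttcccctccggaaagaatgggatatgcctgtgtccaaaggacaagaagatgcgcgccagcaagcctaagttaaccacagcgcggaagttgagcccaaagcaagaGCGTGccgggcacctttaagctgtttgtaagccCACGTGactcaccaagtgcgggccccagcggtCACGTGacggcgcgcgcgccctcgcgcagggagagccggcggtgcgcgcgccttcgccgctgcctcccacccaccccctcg

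ANKRD37 held 2 places, 162 and 143 bases before the start site, the first of them a CACGTG. INSIG2 also held 2, at 159 and 95 bases before it, and TMEM45A, with almost as large a fall as ANKRD37, held none. KDM4C held 3, at 96, 63 and 31 bases before its start site, 2 of them CACGTG. The start site of this KDM4C window lies inside the gene as RefSeq places it (chr9:6720863-7175648), so the window is not that of the gene's outermost start, which was not searched here, while the start sites of the other 3 windows are the outermost positions of their genes. A promoter window was found for 24 of the 33 tested genes and for 11035 of all tested genes. The core was in 20 of the 24 (83.3%) and in 62.4% of all. ACGTG, with or without GCGTG, was in 16 (66.7%) against 26.5%, and GCGTG, with or without ACGTG, in 14 (58.3%) against 50%. CACGTG was in 7 (29.2%) against 10.1%, and 2 or more places were in 15 (62.5%) against 29.7%. Within the 24, the core was in 14 of the 18 called lower and in all 6 that were not called. The 4 windows without it belonged to NRN1, P4HA2, RORA and TMEM45A, each of which was called lower. A match is a run of letters and not a shown binding site, and its absence speaks only of this window.

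**Figure D2:**
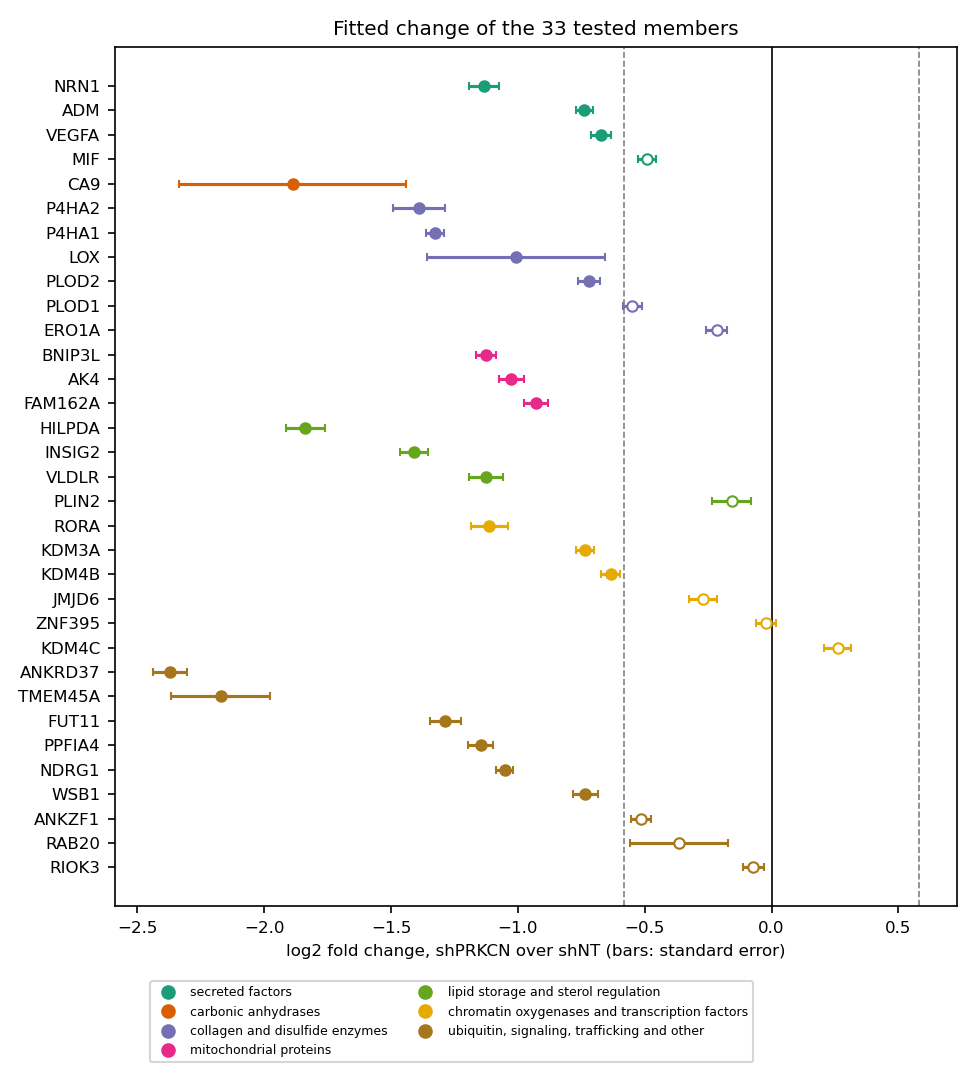
Fitted log2 fold change (shPRKCN over shNT, horizontal) of the 33 tested genes by role (colours), with 3 libraries a group. Bars show the approximate standard error calculated back from the test. Filled points are called, and dashed lines mark the fold limit of 0.58 in each direction. Points run from -2.37 (ANKRD37) to 0.26 (KDM4C), and 32 of 33 lie below 0.

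Among the 4 genes for secreted factors, with NRN1 counted among them, all 4 were lower at the adjusted p and 3 were called (median log2 fold change -0.71). VEGFA, the main angiogenic growth factor among HIF targets, had 5141, 5297 and 5529 counts in shNT and 3342, 3401 and 3538 in shPRKCN libraries. Its groups did not overlap and the level fell to 62.7% of shNT (log2 fold change -0.67 ± 0.04, adjusted p = 1.1e-33). ADM, the vasodilator peptide adrenomedullin, had 8524, 8503 and 8895 counts against 5163, 5378 and 5425 (-0.74 ± 0.04, adjusted p = 5e-41). NRN1, which encodes the membrane-anchored neuritin, fell further than either, from 1640, 1890 and 2041 counts to 886, 825 and 891 (-1.14 ± 0.06, adjusted p = 1.2e-37). MIF, a cytokine and the most abundant of the genes per length, had 21561, 24347 and 26741 counts against 17691, 17976 and 17334. The groups were apart, but the log2 fold change of -0.49 ± 0.04 (adjusted p = 8.9e-18) stayed inside the fold limit. MIF shares exon sequence with the antisense gene MIF-AS1, which went from 162 to 256 counts to 110 to 155 (-0.69).

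CA9, a membrane carbonic anhydrase that is widely used as a hypoxia marker, was barely present. It had 50, 16 and 39 counts in shNT and 11, 3 and 15 in shPRKCN libraries. The groups stood 1 count apart at their nearest, and the sums, 105 against 29 counts, gave a ratio per library total of 0.273 (95% exact interval 0.174 to 0.414, counting error only). The fitted log2 fold change was -1.89 ± 0.45 (adjusted p = 0.00015). For CA9 the shNT libraries alone sufficed to pass the filter on low counts. With at least 10 counts required in every library, CA9 was not tested, and 22 of the listed genes were called lower. In GENCODE release 29, CA9 exons overlap ARHGEF39 on the opposite strand, but RefSeq places the genes apart (chr9:35673928-35681159 for CA9, chr9:35659343-35665195 for ARHGEF39). ARHGEF39 was more abundant and also lower (434 to 583 against 176 to 243 counts, log2 fold change -1.31). The annotation used for counting is not given in the sources used here.

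The 6 enzymes of collagen maturation and disulfide formation were all lower at the adjusted p, and 4 were called (median -0.86). P4HA1 and P4HA2 are alpha subunits of collagen prolyl 4-hydroxylase, which needs oxygen to hydroxylate proline. P4HA1 had 13263, 12950 and 13435 counts in shNT and 5376, 5261 and 5606 in shPRKCN libraries (log2 fold change -1.33 ± 0.04, adjusted p = 8.7e-69). P4HA2 had 595, 560 and 573 counts against 222, 232 and 224 (-1.39 ± 0.10, adjusted p = 3.8e-25). Both fell to 39.9% and 38.2% of shNT with no overlap, although P4HA1 was far more abundant, at 124 ± 3.91 FPKM (fragments scaled by gene length and library size, mean ± SD, n = 3) in shNT libraries against 3.03 ± 0.17 FPKM for P4HA2. The lysyl hydroxylases fell less. PLOD1 had 6398, 6713 and 6751 counts against 4551, 4635 and 4764 (-0.55 ± 0.04, adjusted p = 1.5e-28), inside the fold limit. PLOD2, whose product hydroxylates collagen telopeptides, had 3934, 4188 and 4146 counts against 2483, 2422 and 2751 (-0.72 ± 0.04, adjusted p = 1.7e-32). Neither pair of groups overlapped. LOX, the copper enzyme that cross-links collagen, was close to absent, with 51, 40 and 42 counts against 23, 20 and 25. Its level was roughly 0.23 FPKM in shNT libraries, and its log2 fold change of -1.01 ± 0.35 (adjusted p = 0.011) did not pass the test once the first shNT library was left out (adjusted p = 0.066). LOX exons overlap those of SRFBP1 on the opposite strand, which was more abundant and moved the other way (489 to 583 against 562 to 682 counts, log2 fold change 0.22, adjusted p = 0.025), so the LOX counts are uncertain. ERO1A, an oxidase that passes disulfides to protein disulfide isomerase in the endoplasmic reticulum, changed least of the 6, to 86.0% of shNT (-0.22 ± 0.04, adjusted p = 4.9e-06).

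The 3 tested genes for mitochondrial proteins were all called lower. BNIP3L, a mitophagy receptor also called NIX, had 5795, 5880 and 6059 counts in shNT and 2759, 2673 and 2923 in shPRKCN libraries (-1.12 ± 0.04, adjusted p = 1.3e-54). AK4, an adenylate kinase of the mitochondrial matrix, had 2809, 2960 and 3043 counts against 1512, 1406 and 1524 (-1.03 ± 0.05, adjusted p = 2.2e-41). FAM162A, a mitochondrial protein linked to hypoxic cell death, had 3237, 3031 and 3273 counts against 1713, 1737 and 1696 (-0.93 ± 0.05, adjusted p = 2.2e-38). Its exons overlap WDR5B on the opposite strand, which was higher (326 to 348 against 400 to 486 counts, log2 fold change 0.38). The fitted levels of BNIP3L, AK4 and FAM162A were 45.9%, 49.1% and 52.5% of shNT, and were not compared with each other. BNIP3, the close relative of BNIP3L, had 3, 3 and 1 counts in shNT and 1, 2 and 1 in shPRKCN libraries, at or under a floor of 3 counts, and no fold is given. GENCODE release 29 lists 39 BNIP3 pseudogenes and 6 AK4 pseudogenes, none of them in the count table, so reads of these 2 genes that fit several copies may have been placed elsewhere or dropped.

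Of the 4 lipid genes, 3 were called lower (median -1.27). HILPDA, an inhibitor of the triglyceride lipase ATGL that sits on lipid droplets, had 1235, 1284 and 1261 counts in shNT and 412, 337 and 337 in shPRKCN libraries, or 28.0% of shNT (-1.84 ± 0.08, adjusted p = 2.2e-47). INSIG2 had 2239, 2474 and 2288 counts against 907, 882 and 921 (-1.41 ± 0.06, adjusted p = 1.2e-49). VLDLR, a receptor for triglyceride-rich lipoproteins, had 1243, 1329 and 1389 counts against 633, 652 and 580 (-1.12 ± 0.07, adjusted p = 1.6e-32). In these 3 genes the groups lay well apart. PLIN2, a coat protein of lipid droplets, differed from them, with 700, 738 and 770 counts against 623, 742 and 667. Its groups overlapped and the log2 fold change of -0.16 ± 0.08 did not pass the test (adjusted p = 0.071).

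The 6 chromatin oxygenases and transcription factors were the only role with changes in both directions, with 3 called lower, 4 lower and 1 higher at the adjusted p, and a median of -0.45. KDM3A, a demethylase of histone H3, had 11495, 12176 and 11867 counts in shNT and 7173, 7372 and 7369 in shPRKCN libraries (-0.74 ± 0.03, adjusted p = 6.9e-43). KDM4B, of another demethylase family, had 7239, 7439 and 7827 counts against 4919, 5227 and 4732 (-0.64 ± 0.04, adjusted p = 7.2e-33). Both were lower in every shPRKCN library. KDM4C, from the same family as KDM4B, moved the other way, with 1446, 1415 and 1508 counts against 1768, 1841 and 1765. Every shPRKCN library lay above every shNT library, at 120% of shNT, and the log2 fold change of 0.26 ± 0.05 (adjusted p = 1.3e-05) did not reach the fold limit. RORA, a nuclear receptor, had 1360, 1450 and 1192 counts against 675, 546 and 682 (-1.11 ± 0.07, adjusted p = 8.4e-22), although a long noncoding antisense gene, RORA-AS1, overlaps its exons at 31 to 90 counts. JMJD6, a lysyl hydroxylase of the Jumonji family, was slightly lower (-0.27 ± 0.06, adjusted p = 1.3e-05). ZNF395, a zinc finger factor, had 3774, 4029 and 3979 counts against 3881, 4023 and 4014. Its groups overlapped (-0.02 ± 0.04, adjusted p = 0.67), and it shares exon sequence with FBXO16 on the same strand, which had 202 to 287 counts.

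The remaining 9 genes, in ubiquitin handling, signaling, trafficking and other roles, include the extremes ANKRD37 and TMEM45A, and 6 of the 9 were called lower (median -1.05). FUT11, a fucosyltransferase, had 1667, 1789 and 1797 counts in shNT and 679, 727 and 807 in shPRKCN libraries (-1.29 ± 0.06, adjusted p = 1.6e-41). PPFIA4, a liprin scaffold, had 3248, 3357 and 3418 counts against 1670, 1407 and 1576 (-1.15 ± 0.05, adjusted p = 1.5e-45). NDRG1, a stress-responsive gene of high abundance, had 20242, 21692 and 21841 counts against 10246, 10826 and 10510 (-1.05 ± 0.03, adjusted p = 2e-59). These 3 fell to 41.0%, 45.2% and 48.2% of shNT with groups far apart, and their falls were not compared with each other. WSB1, an adaptor of a ubiquitin ligase, had 2356, 2634 and 2499 counts against 1590, 1492 and 1543 (-0.73 ± 0.05, adjusted p = 1.3e-27). ANKZF1, which acts in the release of stalled ribosomal chains, was lower but inside the fold limit (-0.52 ± 0.04, adjusted p = 1.7e-24). It overlaps GLB1L on the opposite strand, which was higher (178 to 229 against 257 to 287 counts, log2 fold change 0.40). RAB20, a small GTPase, had 123, 118 and 96 counts against 112, 80 and 77, and RIOK3, an atypical kinase, had 3293, 3525 and 3334 against 3307, 3163 and 3458. In both the groups overlapped, with log2 fold changes of -0.37 ± 0.19 (adjusted p = 0.10) and -0.07 ± 0.04 (adjusted p = 0.15).

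The 3 pairs of related genes were compared within each library, which removes any effect of library size. The log2 ratio of P4HA1 to P4HA2 counts was 4.52 ± 0.04 in shNT and 4.58 ± 0.07 in shPRKCN libraries (mean ± SD, n = 3), a difference of 0.06 (two-sided exact permutation p = 0.3, adjusted over 3 pairs 0.3), smaller than the spread of the shPRKCN libraries. For PLOD2 to PLOD1 it was -0.70 ± 0.01 and -0.87 ± 0.07, and the difference of -0.17 had the smallest p that 3 against 3 libraries allow (exact permutation p = 0.1, adjusted 0.15). For KDM4C to KDM4B it was -2.37 ± 0.04 and -1.47 ± 0.04, a difference of 0.90 (exact permutation p = 0.1, adjusted 0.15). The ratios of the last 2 pairs did not overlap between groups, and the p of 0.1 cannot go lower in this design. On the deposited FPKM scale KDM4C stood at 0.158 of the KDM4B level in shNT and 0.295 in shPRKCN libraries. BNIP3 to BNIP3L and CA9 to CA12 could not be compared, for the low count and the missing gene given above.

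In shNT libraries the mean FPKM of the 33 genes ran from 0.228 (LOX) to 1181 (MIF) with a median of 20.2, 8 of them over 50 FPKM and 2 (LOX and CA9) under 1. The Spearman correlation of that level with the log2 fold change was 0.065 over the 33 genes, which share the same libraries and are not replicates, so that no steady trend with level was seen. After MIF, the highest levels were those of ADM (158 ± 3.12 FPKM), P4HA1 (124 ± 3.91), and NDRG1 (116 ± 1.89), the latter pair differing by little more than their SDs. In shPRKCN libraries ADM stood at 95.7 ± 1.73 FPKM, NDRG1 at 56.8 ± 1.24 and P4HA1 at 49.98 ± 1.54, so that NDRG1 and P4HA1 changed places. ANKRD37 went from 53.6 ± 1.38 to 10.5 ± 1.01 FPKM, from beside ANKZF1 (50.6 ± 0.65) to well below it (35.9 ± 1.52).

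**Figure D3:**
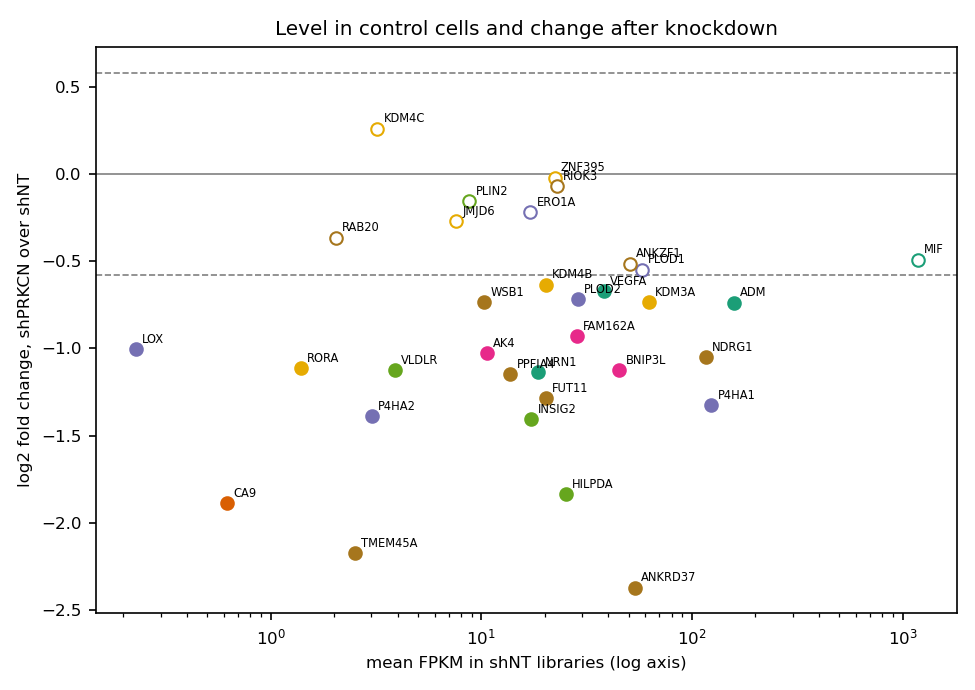
Mean FPKM in the 3 shNT libraries (horizontal, log axis) against the fitted log2 fold change (vertical) of the 33 tested genes, coloured by role as in the plot of fold changes; filled points are called and dashed lines mark 0.58 in each direction. Called falls occur from 0.228 FPKM (LOX) to 158 FPKM (ADM), and the most abundant gene, MIF, lies inside the limit.

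Where the fold limit falls decides some of the calls. Just inside it lay MIF (-0.49), ANKZF1 (-0.52) and PLOD1 (-0.55), and just past it KDM4B (-0.64), VEGFA (-0.67) and PLOD2 (-0.72), each with a standard error of 0.04.

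The tested genes that sense oxygen and carry the response changed by less than the fold limit. Of 17 HIF subunits and regulators, 14 were tested. Of these, 0 were called in either direction, beside 10.6% of all tested genes called lower and 6.16% called higher. At the adjusted p, 6 were lower and 4 higher, beside 27.9% and 26.6% of all tested genes. The median log2 fold change of the 14 was -0.01. DESeq2 also called 0, and the counts at an unadjusted p under 0.05 in edgeR were also 6 lower and 4 higher. HIF1A, the alpha subunit of HIF-1, had 1655, 1720 and 1672 counts in shNT and 1767, 1596 and 1751 in shPRKCN libraries (-0.02 ± 0.05, adjusted p = 0.77), with overlapping groups. EPAS1, the alpha subunit of HIF-2, was higher, with 498, 522 and 550 against 644, 666 and 673 counts (0.30 ± 0.08, adjusted p = 0.0011). HIF3A had at most 1 count in any library. The beta subunit ARNT was slightly lower, with 4155, 4303 and 4120 against 3497, 3818 and 3686 counts (-0.23 ± 0.04, adjusted p = 3.3e-07), as was its relative ARNT2, with 108, 137 and 86 against 78, 81 and 74 counts (-0.55 ± 0.20, adjusted p = 0.016). Among the hydroxylases EGLN1, itself a HIF target, fell within the fold limit from 4127, 4205 and 4378 to 3019, 2886 and 3275 counts (-0.51 ± 0.04, adjusted p = 4.2e-22), while EGLN2 and EGLN3 had at most 4 and 5 counts in any library. VHL was higher in every shPRKCN library, with 3633, 3758 and 3815 against 4480, 4629 and 4588 counts (0.25 ± 0.04, adjusted p = 1.6e-08). These are transcript levels, and the abundance or stability of the HIF proteins was not measured here.

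The other 2 lists give the rest of the pathway. Of 21 glycolytic hypoxia genes, 20 were tested, 15 were called lower and 0 higher (the same counts with DESeq2), and 19 were lower and 1 higher at the adjusted p as at an unadjusted p under 0.05, with a median of -0.71. The largest falls were in ENO2, an enolase (-1.39 ± 0.04, adjusted p = 1.2e-68), and PFKFB4, a regulator of phosphofructokinase (-1.38 ± 0.04, adjusted p = 2.5e-59). The gene that was higher was SLC16A3, a lactate exporter (0.53 ± 0.06, adjusted p = 8.6e-13). Of 15 further HIF targets, 10 were tested, with 2 called lower, 2 called higher, 7 lower and 2 higher at the adjusted p, and a median of -0.37. BHLHE40, a transcriptional repressor (-1.49 ± 0.05, adjusted p = 6.2e-56), and the chemokine receptor CXCR4 (-0.74 ± 0.05, adjusted p = 2.3e-31) fell. IGFBP3, which binds insulin-like growth factors (1.17 ± 0.05, adjusted p = 4.7e-44), and HMOX1, the haem oxygenase (0.67 ± 0.10, adjusted p = 7.5e-09), rose. Over all tested genes 10.6% were called lower and 6.16% higher, and 27.9% were lower and 26.6% higher at the adjusted p. The lists were not tested against each other, and a difference between their medians is given as a description.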

How the data were processed

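The authors deposited raw counts per gene for 21850 genes in 6 libraries, and FPKM values of the same genes that follow from those counts, the library totals and 1 length per gene. Their processing notes name FastQC, HISAT2, StringTie and GRCh38.p14, and their methods name DESeq2. The annotation, strandedness and handling of multiply mapped reads are not given in the sources used here. Library totals of 35625564 to 37730003 counts set the precision, and a count of 3 was taken as the floor. All columns were matched to the labels.

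Here counts were filtered (filterByExpr), scaled by TMM and fitted with edgeR 4.0.16 (robust quasi-likelihood, R 4.3.3) over all 6 libraries without covariates, with Benjamini-Hochberg adjustment over 13971 genes. CPM use TMM-scaled totals. A fold change is accompanied by its standard error. The limits of the study were used for calls: 0.58 for the log2 fold change in either direction, and 0.05 for the adjusted p. At these limits the study reported more genes in each direction than the 861 higher and 1482 lower called here. The reason was not tested. FPKM were used for levels between genes. Ratios of related genes were compared with exact permutation tests (scipy 1.17.1). The scripts were tested on simulated data, with planted changes larger than the fold limit in well-counted genes. Calls near the limit or in low genes were not covered by that test. Alternatives were DESeq2 1.42.0, other scalings and filters, a replicate block, each library left out, glmTreat, and limma 3.58.1 on log2(FPKM + 1) or log2(FPKM + 0.1). Promoters and coordinates are RefSeq's (GRCh38.p14), and gene overlaps are from GENCODE release 29.

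The 35 genes and the lists were chosen with earlier results of these data known. Of the 35, counts per library are given for each called gene, each gene at or under the floor, each gene of a pair and each gene that did not pass the test, and those of MIF were added. From the other lists, the HIF subunits, EGLN genes and VHL are named, and up to 2 called genes in each direction of the remaining 2 lists. SLC16A3, which was not called, was named after its values were seen.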

Additional observations from a re-analysis of the deposited data

How the results depend on the processing

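Over the alternatives run, 20 to 23 genes were called lower (21 with glmTreat) and 0 higher, and 26 to 29 were lower and 1 higher at the adjusted p. The median log2 fold change was -0.93 in the reported fit, -0.83 with at least 10 counts in every library, -0.67 on log2(FPKM + 1), -0.72 on log2(FPKM + 0.1), -0.70 on log2(FPKM + 1) with an FPKM filter, and -0.96 to -0.87 with 1 library left out. A pseudocount shrinks the fold of low genes by construction. Over all genes 2343 were called, against 968 on log2(FPKM + 1), 941 with the FPKM filter and 1164 with glmTreat. Of the values of single genes under the alternatives, 520 kept direction and call, 5 were no longer called and 0 reversed. On log2(FPKM + 1), CA9 (-0.46), LOX (-0.14) and RORA (-0.53, also with the FPKM filter) fell inside the fold limit. LOX without the first shNT library was -0.87 (adjusted p = 0.066; 0.0031 to 0.066 over the alternatives). PLIN2 passed the adjusted p in 1 of 16 alternatives (0.013 to 0.33), RAB20 in 2 (0.027 to 0.34), RIOK3 in 0 (0.057 to 0.50) and ZNF395 in 0 (0.48 to 0.96). Without 1 library, the differences of the pair ratios were 0.03 to 0.10 (P4HA1 to P4HA2), -0.21 to -0.14 (PLOD2 to PLOD1) and 0.87 to 0.92 (KDM4C to KDM4B).

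Libraries that share a replicate number did not deviate together over all tested genes (correlations -0.0419, -0.0133 and 0.0038). No pairing was seen, but counting noise enters these values, so they cannot exclude a shared batch. With the replicate block, 23 genes were called lower, 0 higher, the median was -0.93, and 2334 genes were called over all. Depth limited CA9, LOX, RAB20 and BNIP3, each under 130 counts in every library.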
